A study of Mus musculus with 15 samples.

Results

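Slc15a3, Tspan33, Clec1b, Ptges and Cd200r3 are 5 mouse genes that were chosen by name because their nascent transcription was higher in macrophages labelled as lacking both RevErb receptors. They were taken from 1220 genes to which the authors had assigned a binding site common to RevErbalpha and RevErbbeta. Of the 1544 common sites, 6 were assigned to these genes: 2 to Slc15a3 and 1 to each of the others. The choice used the gene values of the knockout comparison, so these values are given as a description with no test. Slc15a3 had a signal near the middle of all genes in the table, and the other 4 genes were among the 89 genes with the lowest signal.

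RevErbalpha and RevErbbeta are nuclear receptors that bind DNA and recruit a corepressor complex, and they are best known as repressors in the circadian clock. In macrophages they also bind far from gene starts, at enhancers, which are DNA elements that are themselves transcribed into short RNAs. The 5 genes belong to no common pathway. Slc15a3 encodes a transporter of histidine and small peptides in the membranes of endosomes and lysosomes. Tspan33 encodes a tetraspanin of the TspanC8 group, whose members bind the protease ADAM10 and guide it to the cell surface. Clec1b encodes CLEC-2, a C-type lectin receptor for podoplanin that is best known from platelets. Ptges encodes the inducible microsomal enzyme that makes prostaglandin E2. Cd200r3 encodes an activating relative of the inhibitory CD200 receptor, known from mast cells and basophils.

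For the genes, GRO-seq captured RNA that polymerases were still extending, in bone marrow derived macrophages of C57Bl6 background. The group labelled WT carried floxed alleles of RevErbalpha and RevErbbeta (flox/flox for both), and the group labelled DKO carried the same floxed alleles plus Tie2-Cre. WT is therefore the floxed control without Cre and not an animal with unmodified genes, and Tie2 drives Cre in endothelial and blood cells from early development on. The macrophages were grown from marrow in L-cell conditioned medium and kept in M-CSF, and the labels give no age or sex. A further assay at the binding sites, 5'GRO-seq, captures the capped 5' ends of nascent RNA and was run in RAW macrophages, an established mouse line. Its groups were control RAW cells (BTEV-Ctrl) and RAW cells that express RevErbalpha with a biotin tag (BLRP-RevErba). Binding was measured in RAW cells with tagged RevErbalpha, with tagged RevErbbeta or with BirA, the biotin ligase, by pulling biotin down on streptavidin beads. The column read as BirA is headed BirA-input and could also be an input library. Each group has 1 sample in the labels. The table gives 2 gene-level GRO-seq runs per genotype and 3 ChIP-seq runs per RevErb protein, and these were taken as repeats within 1 sample. Nothing in the labels says whether runs came from separate cultures or mice, and the columns do not tell whether a run was treated. The header of the table lists RAW cell RevErb libraries named notx, KLA-1h, S4, S24 and SerumShock, without saying which of them are the numbered ChIP-seq runs. It gives no treatment for the GRO-seq runs.

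The gene-level GRO-seq runs had between 34852907 and 46649008 tags. For 5'GRO-seq the totals were 18708148 tags (control) and 7238710 tags (tagged RevErbalpha). The RevErb ChIP-seq runs had between 598490 and 5276592 tags, and the BirA library had 10548880. Nr1d1, the gene of RevErbalpha, read 7.91 and 7.48 in the runs labelled WT, and 9.44 and 9.56 in those labelled DKO. Its value covers the whole gene and does not show whether the floxed part was removed, so the genotypes below are those of the labels. Nr1d2 had no value among the 1220 genes, so it could not be read here. Csf1r, the M-CSF receptor gene and a macrophage marker, had 12.71 and 12.33 (WT) and 12.52 and 12.71 (DKO).

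The 6 sites fell into both kinds that the authors separated by histone marks. The Slc15a3 sites lay at the start of the gene and had H3K4me3, the mark of promoters, above H3K4me1, the mark of enhancers. The start site was on chromosome 19 at 10916872 to 10917028 of build mm9, 84 bp upstream of the gene start. The upstream site was at 10916240 to 10916396, 716 bp upstream of the same start. Their centres were 632 bp apart, and the 500 bp windows used for 5'GRO-seq did not overlap if they were centred on the sites.

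The other 4 sites were in the authors' list of enhancer-like peaks, with high H3K4me1 and low H3K4me3. The Ptges site (chromosome 2, 30780881 to 30781037) was also in their intergenic list and lay 22142 bp upstream of the Ptges start. The Tspan33 site (chromosome 6, 29636112 to 29636268) lay 8066 bp upstream of the Tspan33 start. The Cd200r3 site (chromosome 16, 44963007 to 44963163) lay 19294 bp downstream of the Cd200r3 start. The Clec1b site (chromosome 6, 129384362 to 129384518) lay 37125 bp downstream of the Clec1b start. The genes that follow Clec1b along the chromosome in RefSeq are Clec9a, Clec1a and Clec7a, all C-type lectins. A site was assigned by the authors to the nearest expressed gene, and no measurement in these files ties a site to its gene.

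No genome of build mm9 was used here, so the bound sequences themselves are not shown. The RefSeq promoter table of build GRCm38.p6 held entries for Tspan33, Clec1b, Ptges and Cd200r3. The 250 bases before the start were searched on both strands for the RevErb core motif AGGTCA, the PU.1 core GAGGAA, the AP-1 motif TGANTCA and the C/EBP motif TTGCNNAA. PU.1, AP-1 and C/EBP factors act together at macrophage enhancers and promoters. The promoters of the 3 genes with a match are shown 5′ to 3′ on the strand of the gene, with the matches in capitals. The windows are chr2:30903298-30903547 on the minus strand for Ptges, chr6:29693964-29694213 on the plus strand for Tspan33 and chr16:44943428-44943677 on the plus strand for Cd200r3.
Ptges: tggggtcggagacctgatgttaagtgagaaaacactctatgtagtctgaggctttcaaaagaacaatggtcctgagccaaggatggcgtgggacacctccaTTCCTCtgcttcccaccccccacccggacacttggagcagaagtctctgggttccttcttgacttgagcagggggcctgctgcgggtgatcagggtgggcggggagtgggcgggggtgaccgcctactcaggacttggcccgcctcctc
Tspan33: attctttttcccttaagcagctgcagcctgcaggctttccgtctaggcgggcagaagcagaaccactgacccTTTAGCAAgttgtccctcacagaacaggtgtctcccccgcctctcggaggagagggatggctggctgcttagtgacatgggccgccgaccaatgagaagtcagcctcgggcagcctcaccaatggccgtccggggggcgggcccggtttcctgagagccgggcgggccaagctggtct
Cd200r3: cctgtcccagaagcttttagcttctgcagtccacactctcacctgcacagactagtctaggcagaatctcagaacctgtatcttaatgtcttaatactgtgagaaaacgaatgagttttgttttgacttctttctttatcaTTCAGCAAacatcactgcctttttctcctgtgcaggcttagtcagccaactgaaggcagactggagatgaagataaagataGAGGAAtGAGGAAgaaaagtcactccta

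The Cd200r3 promoter held the PU.1 core 2 times on the strand of the gene, with first bases 28 and 21 bases before the start, and a C/EBP match 109 bases before it. The Ptges promoter held 1 PU.1 core on the other strand, 149 bases before the start. The Tspan33 promoter held 1 C/EBP match, 178 bases before the start. The Clec1b promoter held none of the 4 motifs and was AT-rich, with 33.2% G and C against 62.4% for Tspan33. AGGTCA was in none of these 4 promoters and in 14% of the 32851 promoters of the table. GAGGAA was in 23.3% of all promoters, TTGCNNAA in 9.56% and TGANTCA in 6.75%. The common RevErb sites of these 4 genes lie outside these windows, and a match or its absence is a description of the letters only.

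All values below are on the authors' log2 scale, on which a difference of 1 is a doubling. Slc15a3, the peptide transporter gene, had WT runs of 9.61 and 9.29 and DKO runs of 10.35 and 10.31. Both DKO runs lay above both WT runs, and the DKO runs were close to each other. The mean was 9.45 ± 0.23 for WT and 10.33 ± 0.03 for DKO (SD of 2 runs), a difference of 0.88, which is 1.84-fold. Single pairs of a DKO and a WT run differed by 0.70 to 1.06.

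Tspan33, the tetraspanin gene, had 4.79 and 5.14 in WT and 6.0 and 6.76 in DKO. The groups did not overlap, but the DKO runs were 0.76 apart. The difference was 1.42 (2.67-fold), and pairs of runs differed by 0.86 to 1.97. Clec1b, the lectin receptor gene, had 3.71 and 3.21 in WT against 4.48 and 4.74 in DKO. These were among the lowest signals of any gene in the table, and the runs did not overlap. The difference was 1.15 (2.22-fold), with pairs from 0.77 to 1.53.

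Ptges, the prostaglandin E2 synthase gene, had WT values of 4.20 and 4.46 and DKO values of 5.10 and 5.59. Its difference was 1.02 (2.02-fold), with pairs of runs from 0.64 to 1.39. Again both DKO runs lay above both WT runs. Cd200r3, the CD200 receptor relative, had 5.83 and 5.42 in WT and 6.66 and 6.33 in DKO. Its difference was 0.87 (1.83-fold), with pairs from 0.50 to 1.24, and its runs did not overlap either. From the largest difference to the smallest the order was Tspan33, Clec1b, Ptges, Slc15a3 and Cd200r3. The ranges of run pairs of all neighbours in this order overlapped, so the order is not resolved by these runs.

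**Figure D1:**
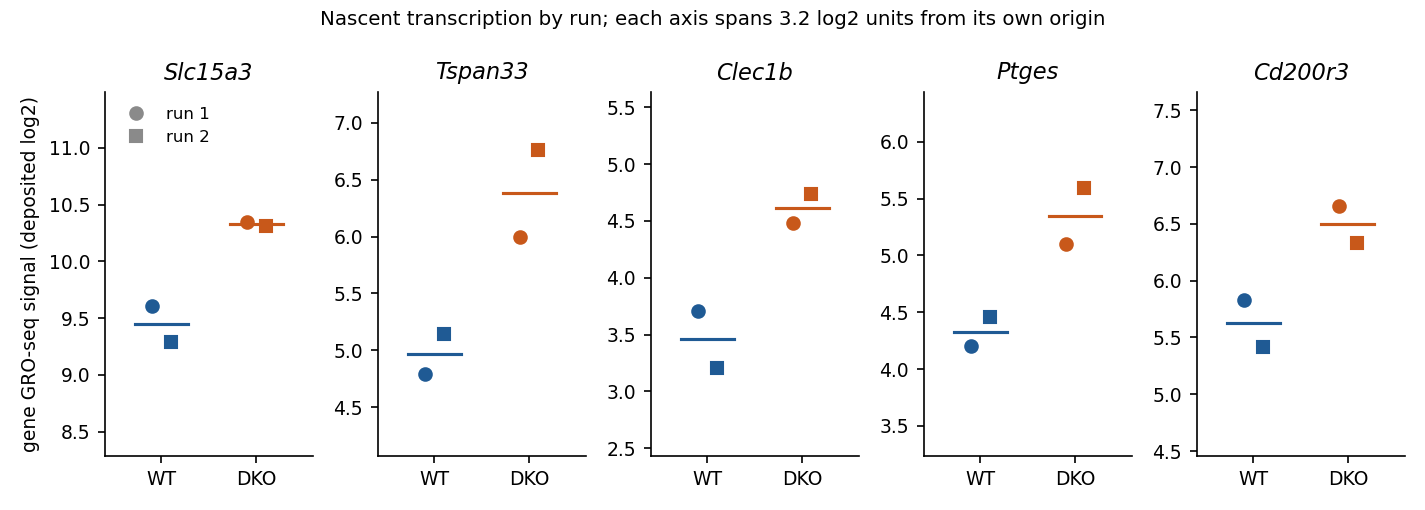
Gene-level GRO-seq signal (deposited log2 values) of the 5 genes in the 2 WT runs and 2 DKO runs; points are runs, lines are means, and each panel has its own origin but spans the same number of log2 units. In each gene both DKO runs sit above both WT runs, with the tightest DKO runs at Slc15a3 (10.35 and 10.31) and the widest at Tspan33 (6.0 and 6.76).

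For comparison, 1 rule was applied to all genes of the table. It called a gene higher when its difference was at least 0.5 and neither DKO run reached down to a WT run. This rule called 24 of 1220 genes higher (1.97%) and 9 lower (0.738%). All 5 genes were among the 24, which follows from their choice as higher in these same runs. Their median difference was 1.02, against 0.035 over all genes, which likewise follows from the choice. Just inside the rule were Car11 and Ppap2c, both at 0.50, and just outside were Cpsf1 at 0.49 and Igf2bp2 at 0.48. By size alone the 5 genes ranked 3rd (Tspan33), 5th (Clec1b), 7th (Ptges), 9th (Slc15a3) and 10th (Cd200r3) of 1220.

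Signal level set these genes apart from one another. The level, taken as the mean of all 4 runs, was 9.89 for Slc15a3, close to the median of 9.885 over all genes. It was 6.06 for Cd200r3, 5.67 for Tspan33, 4.84 for Ptges and 4.04 for Clec1b. Counted from the lowest level, Clec1b was 2nd, Ptges 36th, Tspan33 73rd, Cd200r3 89th and Slc15a3 613th of 1220. The headers give no scaling by gene length, so these ranks say how much signal stands behind a value and not which gene is more highly transcribed. Converted to the linear scale, the mean signal of Slc15a3 went from 699 to 1287 units. That of Tspan33 went from 31.2 to 83.3, that of Cd200r3 from 49.4 to 90.2, that of Ptges from 20.1 to 40.6 and that of Clec1b from 11 to 24.4. Fold changes of similar size thus stood for a gain of 588 units at Slc15a3 and of 13.4 units at Clec1b.

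Runs of one genotype differed more from each other at low signal. In the lowest quartile of level, with 305 genes and levels up to 8.43, the difference between the 2 WT runs had an SD of 0.49, and that between the 2 DKO runs also had 0.49. In the third quartile, which holds Slc15a3, these SDs were 0.26 and 0.19. The runs of one genotype were at least 1 apart for 17 genes (WT) and 15 genes (DKO) in the lowest quartile, and for 1 and 0 genes in the third. The rule called 17 of 305 genes higher in the lowest quartile (5.57%) and 8 lower (2.62%), but only 3 of 305 higher in the third (0.984%) and 0 lower. Slc15a3 was 1 of those 3. Tspan33, Clec1b and Ptges were 3 of the 4 genes of the lowest quartile with a difference of 1 or more, and 2 genes there had -1 or less. The SD of the difference between genotypes was 0.33 over the genes of the lowest quartile and 0.16 over those of the third.

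**Figure D2:**
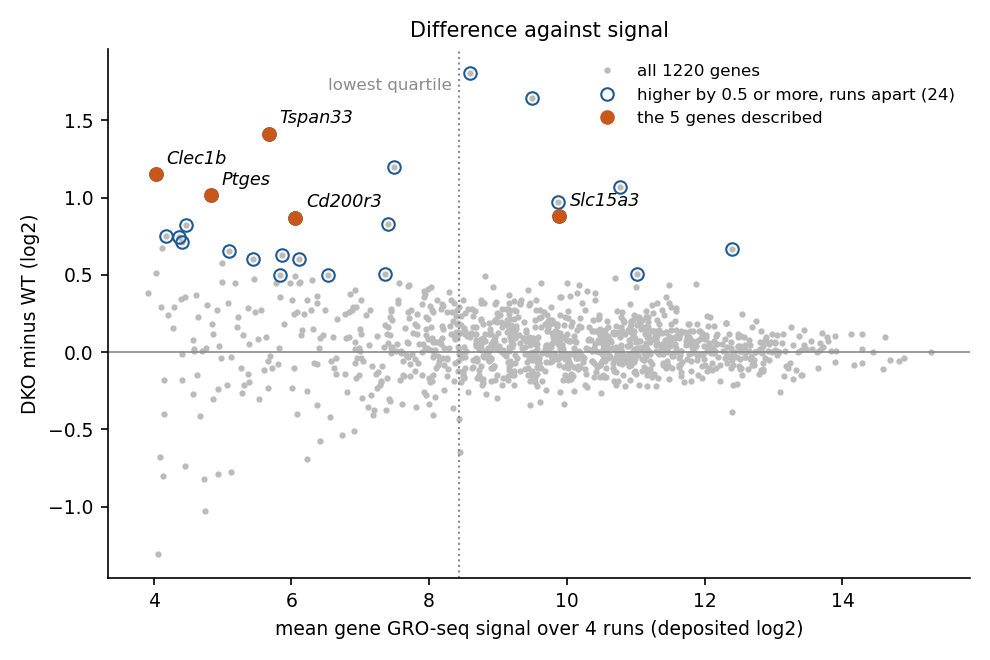
Difference between genotypes (DKO minus WT, log2) against the mean gene signal over 4 runs (deposited log2) for 1220 genes; circles are the 24 genes called higher and filled points the 5 genes described. The scatter widens to the left of the dotted line at 8.43, where Tspan33, Clec1b, Ptges and Cd200r3 lie, while Slc15a3 at a level of 9.89 stands in a region where few genes reach 0.5.

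Adding a constant before the logarithm lowers the weight of small signals. With 10 in place of the authors' constant, taken as 1, all 5 genes still met the rule, and the differences were 0.74 for Clec1b and 0.87 for Slc15a3. With 100, Slc15a3 alone met it, at 0.79, while Tspan33 had 0.50 (just under the threshold), Cd200r3 0.35, Ptges 0.23 and Clec1b 0.16.

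The genes whose 4 run values lay nearest to each of the 5 were found by Euclidean distance on the log2 scale. Nearest to Slc15a3 was Npas2, a clock transcription factor and relative of Clock, at a distance of 0.15. Npas2 had 9.47 and 9.30 in WT and 10.38 and 10.34 in DKO, a difference of 0.98, within 0.14 of Slc15a3 in every run. The next were Ninj2 (distance 0.59) and Btg2 (0.59), with differences of 0.36 and 0.45. Nearest to Clec1b were Rem1 (0.56), Egr3 (0.93) and Oacyl (1.15), all called higher, with differences of 0.75, 0.75 and 0.72. Nearest to Cd200r3 were Sh3tc2 (0.47) and Hic1 (0.51), of which Sh3tc2 was called higher with 0.60. Tspan33 had no close neighbour: Pdcd1lg2 (difference 0.63) was at 1.02, Scel at 1.17 and Enpp4 at 1.21. Ptges was nearest to Srd5a2 (0.72), Adra2a (0.80) and 1810010D01Rik (0.81), and none of these 3 was called higher. Distance over 4 runs takes in both the level and the difference between genotypes. The same runs chose the 5 genes, so neighbours that were called higher follow in part from that choice. In addition, 4 values per gene do not describe a shared pattern beyond these runs.

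Capped nascent RNA at the sites was measured in other cells and was not used to choose the genes. In RAW cells with tagged RevErbalpha it was lower than in control RAW cells at both Slc15a3 sites, the Ptges site and the Cd200r3 site. It was higher at the Clec1b site, and at the Tspan33 site there was no signal to compare. With 1 library per condition there is no replicate check. Intervals in brackets are exact 95% intervals from approximate tag numbers, and they cover counting error only.

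The Slc15a3 start site had 7.54 (control) and 6.72 (tagged RevErbalpha), from about 346 and 75 tags. The difference was -0.82 (interval -1.22 to -0.47). At the Slc15a3 upstream site the values were 7.70 and 6.0, from about 387 and 45 tags, with a difference of -1.70 (interval -2.21 to -1.29). The 2 sites thus had nearly equal signal in control cells, and the site farther from the start had the larger difference. Since the intervals did not overlap, counting error alone does not cover the gap between these sites. If the windows are centred on the sites, that of the start site holds the start of Slc15a3 and also reads the capped RNA of the gene itself, while that of the upstream site does not reach the start.

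The intergenic Ptges site had 5.20 (control) and 2.72 (tagged RevErbalpha), from about 66 and 4 tags. The difference of -2.48 was the largest at these 6 sites, but with 4 tags its interval ran from -4.59 to -1.25. At the Cd200r3 site the values were 7.24 and 6.33, from about 280 and 57 tags, with a difference of -0.91 (interval -1.36 to -0.51). This enhancer-like site had almost as much capped RNA in control cells as the start of Slc15a3. At the Clec1b site the values were 5.47 and 6.38, from about 81 and 59 tags, with a difference of 0.91 (interval 0.40 to 1.41). The Clec1b site therefore moved opposite to the sites of Slc15a3, Ptges and Cd200r3. At the Tspan33 site the values were 0.15 and 0.65, which stand for no tag in either library, as at 80 of the 1544 sites. A count of 0 allows up to 3 tags per library, and no fold is given.

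Leaving out the Tspan33 site, signal was lower by any amount at 4 of 5 sites, against 64.3% of the 1464 common sites with a tag in either library. It was lower by 1 or more at 2 of the 5, the Slc15a3 upstream site and the Ptges site, and higher by 1 or more at none. Over the 1464 sites 21.1% were lower by 1 or more and 4.92% higher. The median difference was -0.91 for the 5 sites and -0.27 over the 1464. With 5 sites, 2 is no more than 1 site above what the background share gives. Centring on the median of all 1544 sites, a shift of 0.23, left 4 sites lower, with the same 2 at -1 or less, and put the Clec1b site at 1.14, past 1. Among all 301 sites with H3K4me3 above H3K4me1, such as those of Slc15a3, 12.3% were lower by 1 or more. Among all 1243 enhancer-like sites it was 21.9%. These 2 shares, unlike those over the 1464, also count sites without a tag.

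GRO-seq at the sites in bone marrow derived macrophages came from the same genotypes that chose the genes, and the table gives 1 value per genotype. At the Slc15a3 start site it was 5.57 in WT and 6.39 in DKO, a difference of 0.82, near that of the gene (0.88). At the Slc15a3 upstream site it was 4.35 and 4.845, a difference of 0.495. The start site ranked 54th of 1544 sites in the DKO library. At the Cd200r3 site the values were 3.825 and 4.25, a difference of 0.425, which is less than that of the gene (0.87).

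The other sites had little GRO-seq signal. The Tspan33 site had 0.175 in WT and 0.765 in DKO, and the Clec1b site 0.32 and 0.965. Both values were under 1 in both genotypes, as at 161 of the 1544 sites. The Ptges site had 1.48 in WT and 0.30 in DKO, so its difference of -1.18 pointed away from that of the gene (1.02). With 10 added before the logarithm these differences were 0.08 at Tspan33, 0.10 at Clec1b and -0.20 at Ptges, against 0.72 at the Slc15a3 start site. By any amount 5 of the 6 sites were higher in DKO, against 52.5% of all sites. None was higher by 1 or more and 1 was lower by 1 or more. Over all sites 3.37% were higher and 2.2% lower. Read together by gene, Slc15a3 and Cd200r3 had sites that were higher in the DKO library in one cell system and lower with tagged RevErbalpha in the other. Each direction alone was common, at 52.5% of all sites by GRO-seq and 64.3% of sites with a tag by 5'GRO-seq. The share of sites with both was not computed. The Slc15a3 start site lies 84 bp from the gene start, and the Cd200r3 site is not in the authors' intergenic list. GRO-seq at these sites may therefore include transcription of the gene itself, on which the genes were chosen, and this part was not tested. Ptges had a site that was lower in both comparisons, but with little signal by GRO-seq (1.48 and 0.30). Clec1b had a site that was higher with tagged RevErbalpha and near 0 by GRO-seq, and Tspan33 had a site near 0 in both.

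**Figure D3:**
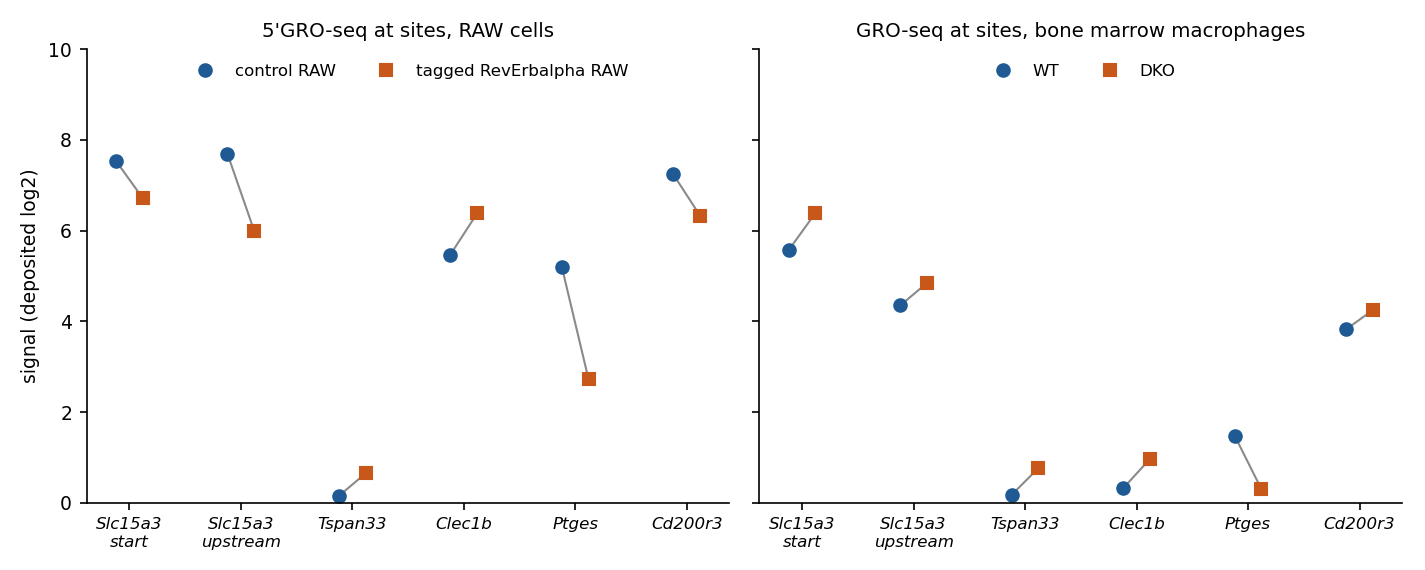
Signal (deposited log2) at the 6 sites by 5'GRO-seq in control and tagged RevErbalpha RAW cells (left) and by GRO-seq in WT and DKO macrophages (right); each point is 1 value, and lines join the conditions of a site. The lines fall at both Slc15a3 sites, Ptges and Cd200r3 on the left, and rise at Slc15a3 and Cd200r3 on the right, where Tspan33, Clec1b and Ptges lie below 1.5.

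By the mean of both proteins, all 6 sites were bound more strongly than the median common site, which had a mean log2 value of 5.54 over both proteins and 1.10 for BirA. Binding was not used to choose the genes, although every site had to be called as a peak of both proteins. The strongest of the 6 was the Cd200r3 site, with a mean of 6.78, rank 169 of 1544. It had 4.83, 7.04 and 7.63 for RevErbalpha, 7.46, 6.53 and 7.19 for RevErbbeta and 1.47 for BirA. The Ptges site followed with 6.73, rank 182. It had 7.59, 7.35 and 4.81 for RevErbalpha, 8.89 in the deepest RevErbbeta run, with 6.26 and 5.45 in the other RevErbbeta runs, and 0.91 for BirA. At the Ptges site single runs lay up to 4.08 log2 units apart, more than any gap between the sites' means.

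The Slc15a3 upstream site had a mean of 6.61, rank 212, from 7.24, 5.72 and 6.99 for RevErbalpha and 5.64, 7.72 and 6.33 for RevErbbeta. Its BirA value of 1.93, about 3 tags, was higher than at 92.6% of common sites. The Slc15a3 start site had a mean of 6.09, rank 419, with runs from 5.32 to 7.29 and 0.69 for BirA. The Clec1b site had a mean of 6.20, rank 366, with 5.19, 7.27 and 7.65 for RevErbalpha, 6.30, 6.19 and 4.60 for RevErbbeta and 0.78 for BirA. The Tspan33 site was the weakest with 5.82, rank 560, with runs from 4.33 to 7.79 and 0.50 for BirA. For RevErbalpha alone the Tspan33 site was below the median, with 43.1% of common sites under it. For RevErbbeta alone the Clec1b site was at the median, with 50.4% under it. Every RevErb run at every one of these sites was above the BirA value, by at least 3.36 at the Cd200r3 site in RevErbalpha run 1. Since the sites were called as peaks, this is a description and no test of binding. In shallow runs few tags also give a high value: RevErbalpha run 3 read 4.33 at the Tspan33 site from about 1.1 tags.

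The order of the sites was not fixed by these runs. As differences from BirA the means were 5.82 at Ptges, 5.42 at Clec1b, 5.40 at the Slc15a3 start site, 5.32 at Tspan33, 5.31 at Cd200r3 and 4.68 at the Slc15a3 upstream site, which then came last. The order also depended on the shallow runs, which held few tags. With the 3 runs of more than 1000000 tags alone, the Ptges site was the strongest with 7.58, rank 38, followed by the Slc15a3 upstream site with 6.96, rank 106. The Cd200r3 site then had 5.91, rank 441, and the Clec1b site 5.72, rank 580. In RevErbalpha run 3 the Tspan33 and Ptges sites held only about 1.1 and 1.6 tags. With these deeper runs, too, all 6 sites lay above the median.

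**Figure D4:**
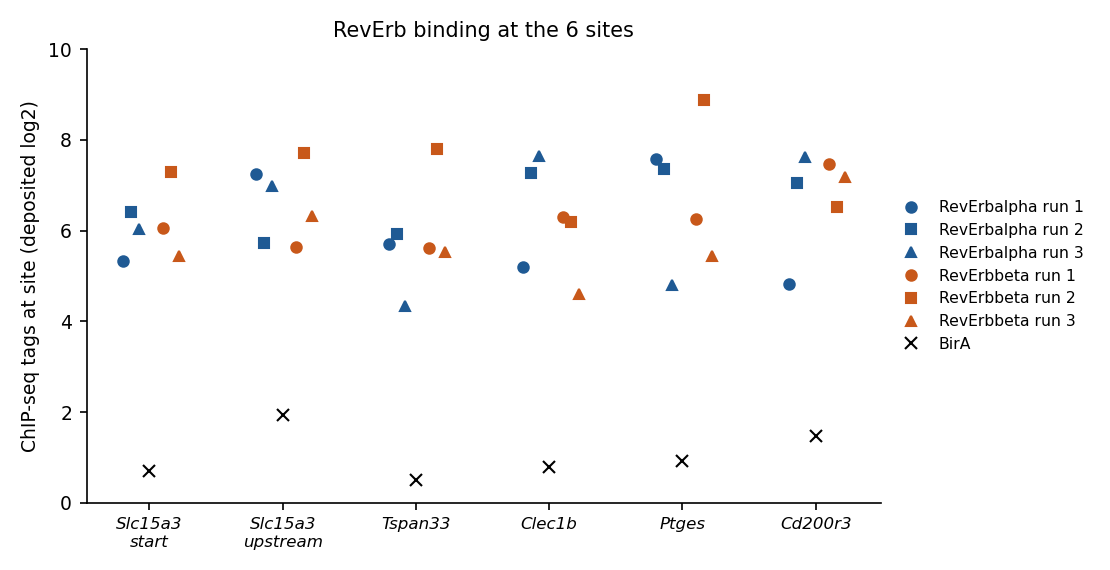
ChIP-seq signal (deposited log2 tags at the site) at the 6 sites in 3 RevErbalpha runs, 3 RevErbbeta runs and the BirA library; each point is 1 run. All RevErb runs sit above the BirA crosses, which range from 0.50 to 1.93, while runs of one protein spread over up to 3.44 log2 units at a site.

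Genes next to the 5 with a common site of their own gave a view of the same regions. They were taken as those with a common site within 300 kb of a site described here, a choice made after the values had been seen. Cd200r4, another activating CD200 receptor gene, has a site 130 kb from that of Cd200r3. It had 7.21 and 7.47 in WT and 8.01 and 7.57 in DKO. Both DKO runs were above both WT runs, as for 18.4% of all genes, and its difference of 0.45 was below the size rule. The Cd200r4 site had GRO-seq values of 1.365 in WT and 2.845 in DKO, a difference of 1.48, at low signal. Its 5'GRO-seq values of 2.24 in control and 1.39 in tagged RevErbalpha cells stood for about 6 and 1 tags (interval of the log2 difference -6.74 to 1.83), too few to give a direction.

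The other neighbours differed little. Clec12a, an inhibitory lectin receptor gene with a site at its start 84 kb from the Clec1b site, read 11.34 and 11.30 in WT and 11.27 and 11.36 in DKO, with overlapping runs. Irf5, an interferon regulatory factor gene with its site about 160 kb from that of Tspan33, had a difference of 0.17 with overlapping runs. Fnbp1, which has 2 sites 136 and 137 kb from the Ptges site, had 0.045 with overlapping runs. No neighbour with a common site lay within this distance of Slc15a3.

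Genes of the pathways around the 5 were listed with earlier results of these data known, and those with a common site are described. None of the other genes in the 5 lists was called higher or lower, against 1.97% and 0.738% of all genes. In the list of endolysosomal peptide transport and NOD sensing, 4 of 18 other genes had a common site, with differences from 0.045 to 0.28. Slc15a4, the closest relative of Slc15a3 in that list, read 11.34 and 11.03 in WT and 11.28 and 11.37 in DKO, with overlapping runs. Nod2, the cytosolic sensor of muramyl dipeptide, had 9.02 and 8.92 in WT and 9.30 and 9.2 in DKO, a difference of 0.28. Its DKO runs both lay above its WT runs, as for 18.4% of all genes.

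In the prostaglandin and eicosanoid list, 5 of 20 other genes had a site. Pla2g4a, the phospholipase that releases arachidonic acid, had a difference of -0.17, and Ptgs1, the cyclooxygenase upstream of prostaglandin synthases, had -0.18. The prostaglandin E2 receptor gene Ptger4 had 0.09, and the runs of all 5 overlapped. In the tetraspanin and ADAM10 list, 3 of 18 had a site: the protease gene Adam17 had 0.24 and the tetraspanin genes Cd9 and Cd53 had -0.035 and -0.025. Runs did not overlap at Adam17, which was higher in DKO, and at Cd9, which was lower, as for 18.4% and 10.0% of all genes in these directions. In the C-type lectin list, 9 of 22 had a site, with differences from -0.085 to 0.275. These include Syk (0.14) and Plcg2 (-0.045), a kinase and a phospholipase that act below CLEC-2. In the CD200 list, 4 of 12 had a site: Cd200r4 (0.45), the adaptor genes Dok2 (0.34) and Tyrobp (0.205), and Inpp5d, a lipid phosphatase gene (0.005). The median over the other genes of a list lay between -0.025 and 0.27, against 0.035 over all genes.

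Clec1b and Cd200r3 are known from platelets and from mast cells and basophils. Of 6 platelet and megakaryocyte markers only Pf4 had a gene value in the table, with 7.47 and 7.43 in WT and 7.48 and 7.49 in DKO. None of 7 mast cell and basophil markers, 4 dendritic cell markers, 4 B cell markers and 4 endothelial markers had one, since the table holds only genes with a common site. The part of other cells in the Clec1b and Cd200r3 values was not tested. In such bulk samples more cells of a type and more RNA per cell cannot be told apart.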

How the data were processed

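The authors' deposited summary table was used, together with their 3 lists of peak positions. The submitters' processing notes list build mm9, Bowtie 0.12.7 and HOMER, without their roles. ChIP-seq and 5'GRO-seq values are log2 tags per 10000000, in 157 bp and 500 bp, per the file headers. GRO-seq values are log2 signal per the file headers, which state no scaling by length. Low deposited log2 values carried an even spread below 1 tag, so tag numbers are approximate (value minus 1 on the linear scale, divided by the scaling factor and rounded down). The intervals described below treat these approximate numbers as counts, and no other count model was used. Positions, classes and gene assignments are other deposited values of the authors.

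Runs were averaged on the log2 scale. Recomputed differences lay within 0.01 of the authors' columns. Each group has 1 sample, so conditions were not tested. Intervals are exact Clopper-Pearson 95% intervals of the share of tags, scaled by the library factors. Gene IDs were matched to RefSeq GRCm38.p6 names (1208 of 1220, and all 5 here). Python 3.11.15, pandas 2.3.3, numpy 2.4.6, scipy 1.17.1 and matplotlib 3.10.9 were used, and the rules were tested on simulated data. The 5 genes, the lists and the size rules of 0.5 for genes and 1 for sites were chosen with earlier results of these data known. Named were the 5 genes, the 3 nearest genes to each, the 2 genes on each side of the rule, listed genes and genes with a common site within 300 kb. A nearest gene and a marker that these rules name are not reported here. Alternatives were leaving out each run, centring, constants of 10 and 100, a filter on low signal, and deeper runs only.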

Additional observations from a re-analysis of the deposited data

How the results depend on the processing

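The genes were chosen on these runs, and every pair of a DKO and a WT run already differed by 0.50 or more, so leaving out 1 of the 4 runs or pairing them by number could only return all 5 and says nothing of stability. The count was 5 to 5, and the differences were 0.72 to 1.04 for Slc15a3, 1.04 to 1.80 for Tspan33, 0.90 to 1.40 for Clec1b, 0.77 to 1.26 for Ptges and 0.67 to 1.08 for Cd200r3. It was 1 with 100 added before the logarithm, and 1 among genes above the lower quartile of signal, which leaves out the other 4 by construction. Over all genes, leaving out 1 run gave 33 to 67 higher and 17 to 27 lower, since a single run cannot overlap itself; the low-signal filter left 7 and 1, and 100 added left 8 and 0. With a size rule of 0.5, 4 of the 6 sites were lower by 5'GRO-seq (2 with a rule of 1), and 3 were higher by GRO-seq (0 with a rule of 1). The 6 include the Tspan33 site, which had no 5'GRO-seq tag. The 3 include the Tspan33 and Clec1b sites, with GRO-seq values under 1 in both genotypes. The share of all sites past 0.5 was not computed, so the counts at 0.5 have no background beside them. All 6 sites stayed above the median binding with any 1 ChIP-seq run left out (6 to 6). No result changed sign. No paired analysis was possible because each group has 1 sample; with runs of the same number taken as a replicate block, 5 of 5 genes had both differences at 0.5 or more. The 4 tags at the Ptges site with tagged RevErbalpha and the absence of tags at the Tspan33 site limit what 5'GRO-seq can show there.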
